A study of Mus musculus with 6 samples.

Results

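The AP-1 genes examined were 8 of the 18193 genes measured, all of the Fos, Jun and Atf families, namely Fos, Fosb, Fosl1, Fosl2, Jun, Junb, Jund and Atf3. They were taken as every probe set (a group of short array probes read as 1 value) whose platform annotation named 1 of these genes alone, which gave 12 of the 45037 probe sets tested. Fosl1, Fosl2, Jun and Jund had 2 probe sets each and the other 4 genes had 1. The cells were LSK cells of mouse bone marrow, the lineage-negative, Sca1-positive, c-Kit-positive fraction in which blood stem cells and early progenitors are found. The 3 control arrays came from Srf+/+;Mx1-Cre mice and the 3 SRF-null arrays from Srf flx/flx;Mx1-Cre mice, all on C57BL/6. Mice of both genotypes carried the Cre and were given pIpC, so neither group is free of recombinase or of the interferon response that pIpC provokes. Doses of 200 µg were injected 3 times at intervals of 2 days from an age of 6 weeks, and cells were collected 35 days after the final dose. Mx1-Cre is driven by an interferon-inducible promoter and acts in many cell types, not in LSK cells alone. Cells of several animals were pooled before sorting, how many per pool is not stated in the labels, and p-values here reflect the spread of these 6 arrays only, which may be technical.

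AP-1 is a dimer of basic leucine zipper proteins. FOS-family proteins need a JUN-family partner to bind DNA, whereas JUN proteins can also pair with each other and with ATF proteins such as ATF3. Several of these genes are immediate early genes, which are transcribed within minutes of a growth or stress signal without new protein synthesis, and SRF bound to a CArG box together with a ternary complex factor such as ELK1 is the textbook switch for Fos. The comparison asked how transcripts of this family stand in LSK cells when Srf has been targeted.

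Promoter sequence was available for 7 of the 8 genes (RefSeq, GRCm38.p6, 250 bases before to 50 bases after the annotated start). Fosl1 had no entry. The last 120 bases before the start are shown for Fos and Jun, whose signals varied most between arrays, and for Junb and Atf3, whose signals ran closest together. Capitals mark the motifs searched on both strands, which were the CArG box, the cyclic AMP response element TGACGTCA and its core TGACGT (which the full element contains), the AP-1 site TGANTCA, the variant TGACATCA known from the Jun promoter, and TATAAA.
Fos (chr12:85473770-85473889, plus strand): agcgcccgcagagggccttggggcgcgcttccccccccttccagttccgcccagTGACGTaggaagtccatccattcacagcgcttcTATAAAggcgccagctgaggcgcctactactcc
Jun (chr4:95052223-95052342, minus strand): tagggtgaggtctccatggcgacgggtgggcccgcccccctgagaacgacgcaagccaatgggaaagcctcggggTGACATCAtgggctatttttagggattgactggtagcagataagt
Junb (chr8:84978749-84978868, minus strand): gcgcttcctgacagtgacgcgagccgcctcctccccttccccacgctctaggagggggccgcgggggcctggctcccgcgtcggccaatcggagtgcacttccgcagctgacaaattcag
Atf3 (chr1:191183334-191183453, minus strand): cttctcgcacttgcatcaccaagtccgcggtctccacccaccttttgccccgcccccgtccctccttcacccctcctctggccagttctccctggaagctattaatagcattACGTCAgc

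No CArG box lay in any of the 7 windows, against 1.63% of all 32851 promoter windows of this length. The serum response element of Fos is known to lie further upstream than this window reaches. The Fos window held TGACGT at bases -66 to -61 and TATAAA at -33 to -28, counted from the annotated start. The Jun window held TGACATCA at -45 to -38, and the Atf3 window held TGACGT on the minus strand at -8 to -3. The printed stretch of Junb held none of the motifs, and its TATAAA match covered bases 1 to 6 after the annotated start. Among all windows 7.51% held TGACGT, 3.62% held TGACATCA, 7.81% held TGANTCA, 1.79% held TGACGTCA and 13.6% held TATAAA. These matches describe the letters in the window and were not used in any test.

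Before normalization the median intensity of the arrays ranged from 200.5 to 292.1 and the upper quartile from 5024 to 5320. All values below are quantile-normalized log2(intensity + 16), with group means ± SD (n = 3), and every difference is SRF-null minus control on that scale, with the standard error (SE) from limma. An intensity of 0 would lie at 4.0 before normalization, so values near 4 are at the bottom of the scale. The sorting marker Kit was at 14.81 to 15.44 and the progenitor marker Cd34 at 16.72 to 16.93 over the 6 arrays, while Ly6a, which encodes Sca1, was not analysed here. The targeted gene Srf was at 13.04, 13.00 and 13.04 on the control arrays and at 12.58, 12.43 and 12.80 on the SRF-null arrays on its brighter probe set, a difference of -0.42 (SE 0.14, unadjusted limma p of 0.0247, adjusted p = 1). Its dimmer probe set differed by 0.10 (SE 0.35), and the place of either probe set relative to the deleted part of Srf was not known here. Control replicate 2 lacked the signal of the Y-linked gene Eif2s3y (4.37 against 13.06 to 14.50 elsewhere) and SRF-null replicate 1 lacked that of Xist (5.03 against 15.13 to 16.24 elsewhere), so each of these pools showed transcripts of 1 sex and the other 4 of both.

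Of the 8 genes, some were lower on the SRF-null arrays and some swung between arrays of the same genotype. Junb, Fosl1 and Fosl2 had all 3 SRF-null arrays below all 3 control arrays. On this scale Atf3, which was dim, was lower by an amount like that of Junb and Fosl2, with groups that just overlapped. Fos, Jun and Fosb varied by up to 168-fold between arrays, with their highest signals on a single SRF-null array. Fosl1 also varied widely among the controls. The brighter Jund probe set was nearly level between the group means, though it too was highest on that SRF-null array. By limma 0 of the 12 probe sets passed an adjusted p of 0.05 over all probe sets, as did 0 (0%) of all 45037. At an unadjusted p under 0.05, 5 of the 12 (both of Fosl1, the brighter of Fosl2, Junb and Atf3) were lower in SRF-null cells, where 2.02% of all probe sets were, and 0 were higher, where 2.37% were. Groups did not overlap for 5 of the 12 (both of Fosl1, both of Fosl2, and Junb), each with SRF-null lower, where 4.5% of all probe sets lay apart in that direction and 4.73% in the other. The median difference of the 12 was -0.23, against 0 over all probe sets.

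**Figure D1:**
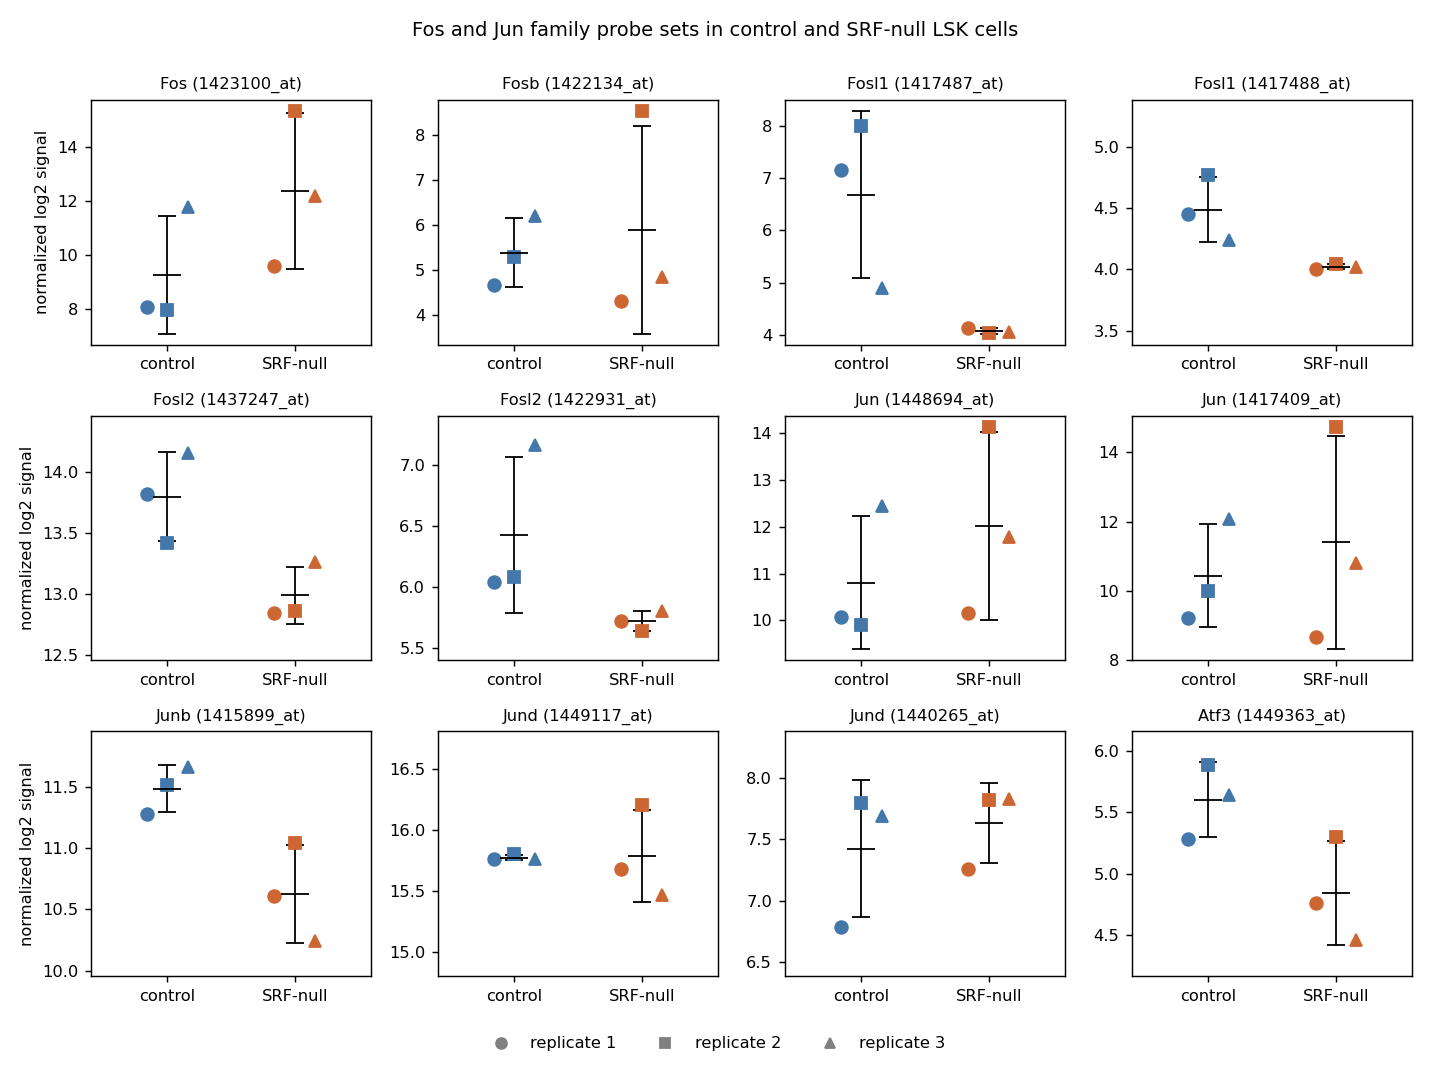
Normalized log2 signal (vertical axis, drawn on its own range in each panel) of the 12 probe sets in control and SRF-null LSK cells. Each symbol is 1 array, its shape gives the replicate number, and bars show mean and SD (n = 3); the groups lie apart for Junb and both probe sets of Fosl1 and Fosl2, while Fos, Fosb and Jun have a single SRF-null array, replicate 2, far above the rest.

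Fos encodes the founding member of the FOS family and is the best-known SRF target in it. Its normalized log2 signal was 8.07, 7.94 and 11.78 on control replicates 1 to 3 and 9.57, 15.33 and 12.17 on SRF-null replicates 1 to 3. Control replicate 3 stood well above the other controls, and SRF-null replicate 2 stood above every array, so the groups overlapped. As deposited, the intensities ran from 214.6 on control replicate 2 to 40280 on SRF-null replicate 2. The means were 9.26 ± 2.18 and 12.36 ± 2.88, a difference of 3.10 (SE 1.72, 95% interval -1.11 to 7.30, unadjusted limma p of 0.122, adjusted p = 1), and it depended on single arrays. Without SRF-null replicate 2 it was 1.61 (SE 1.5), without control replicate 3 it was 4.35 (SE 1.68, unadjusted limma p of 0.0492), and without SRF-null replicate 1 it was 4.49 (SE 1.57, unadjusted limma p of 0.0353), with an adjusted p = 1 in each. Between arrays of the same replicate number the SRF-null signal was the higher each time, by 1.5, 7.39 and 0.39. The SD within groups was 2.56, larger than that of 99.6% of the 2252 probe sets of like level.

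Jun encodes the partner with which FOS forms the classical AP-1 dimer. Its brighter probe set read 10.07, 9.90 and 12.44 on the controls and 10.15, 14.14 and 11.78 on the SRF-null arrays. SRF-null replicate 2 was the highest array, as for Fos. Control replicate 3 was next, whereas for Fos SRF-null replicate 3 (12.17) stood above control replicate 3 (11.78). The difference was 1.22 (SE 1.17, 95% interval -1.64 to 4.08, unadjusted limma p of 0.337, adjusted p = 1) and was 0.16 (SE 0.97) without SRF-null replicate 2, 2.04 (SE 1.17) without control replicate 3 and 2.15 (SE 1.08) without SRF-null replicate 1. The second probe set of Jun read 9.23, 10.01 and 12.09 against 8.66, 14.74 and 10.80, with a difference of 0.95 (SE 1.62) that turned to -0.72 (SE 1.08) without SRF-null replicate 2 and was 2.32 (SE 1.43) without SRF-null replicate 1. Both probe sets of Jun thus had the same 2 arrays on top.

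Fosb encodes the FOS-family member whose truncated form, ΔFOSB, is known for its long life in neurons. It was dim, under an intensity of 16 on 3 of 6 arrays, and read 4.67, 5.28 and 6.2 on the controls and 4.30, 8.54 and 4.84 on the SRF-null arrays. As for Jun, SRF-null replicate 2 was highest and control replicate 3 second. The difference of 0.51 (SE 1.16, unadjusted limma p of 0.677) became -0.82 (SE 0.50) without SRF-null replicate 2, so that the direction rested on that array. With all 6 arrays, the 95% intervals of Fos, Fosb and Jun each spanned 0.

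Junb encodes a JUN protein that restrains growth in many settings and whose loss in mouse blood stem cells is known to give a myeloproliferative disease. Its signal was 11.28, 11.52 and 11.66 on the controls and 10.61, 11.04 and 10.24 on the SRF-null arrays. Every SRF-null array lay below every control, and SRF-null replicate 2, the top array for Fos and Jun, was here only the highest of its own group. The difference was -0.86 (SE 0.24, 95% interval -1.44 to -0.27, 1.81-fold, unadjusted limma p of 0.0117), which did not pass adjustment (adjusted p = 1). Leaving out any 1 array moved it between -1.06 and -0.66. Within replicate numbers the differences were -0.67, -0.48 and -1.42.

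Fosl2 encodes FRA2, a FOS-family protein without the strong activation domain of FOS. Its brighter probe set was at 13.82, 13.42 and 14.15 on the controls and at 12.85, 12.86 and 13.26 on the SRF-null arrays. The groups did not overlap, and the difference was -0.81 (SE 0.23, 95% interval -1.38 to -0.23, 1.75-fold, unadjusted limma p of 0.0137, adjusted p = 1). The dimmer probe set gave 6.04, 6.08 and 7.16 against 5.72, 5.64 and 5.80, also apart, with a difference of -0.70 (SE 0.32, unadjusted limma p of 0.0725). Both probe sets of Fosl2 were lower in SRF-null cells in 3 of 3 pairs of equal replicate number, which must hold where the groups lie apart.

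Fosl1 encodes FRA1, the other FRA protein, whose gene is itself a target of AP-1. Its brighter probe set read 7.15, 8.01 and 4.90 on the controls and 4.13, 4.03 and 4.06 on the SRF-null arrays, where the deposited intensities were only 0.3597 to 1.427. The groups lay apart, but control replicate 3, at a deposited intensity of 13.7, was close to the bottom of the scale too. The difference was -2.61 (SE 0.77, 95% interval -4.49 to -0.73, unadjusted limma p of 0.0146, adjusted p = 1), and its size depends on the offset, at -5.42 with an offset of 1 and -1.35 with 64. The second probe set was under an intensity of 16 on 6 of 6 arrays (4.45, 4.77 and 4.24 against 4.0, 4.04 and 4.02) and differed by -0.47 (SE 0.17, unadjusted limma p of 0.0323). Fosl1 was therefore measured above the bottom of the scale on control replicates 1 and 2 and on no SRF-null array.

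Atf3 encodes a stress-induced ATF protein that pairs with JUN and often represses its targets. It was dim, at 5.28, 5.89 and 5.64 on the controls and 4.76, 5.30 and 4.46 on the SRF-null arrays. SRF-null replicate 2 lay just above control replicate 1, so the groups overlapped after quantile normalization, although in the deposited intensities all SRF-null arrays (6.322 to 23.68) lay below all controls (24.44 to 40.47). The difference was -0.76 (SE 0.27, 95% interval -1.42 to -0.09, unadjusted limma p of 0.0315, adjusted p = 1). As for Fosl1, its size depends on the offset, at -1.37 with an offset of 1 and -0.33 with 64. Junb, which was brighter, was at -0.86 and -0.84 with these offsets.

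Jund encodes the JUN protein that is made steadily in resting cells rather than on a signal. Its brighter probe set read 15.76, 15.80 and 15.76 on the controls and 15.68, 16.20 and 15.47 on the SRF-null arrays. The controls nearly coincided and the SRF-null arrays lay on both sides of them. The SD within groups was 0.27, larger than that of 95.9% of the 2252 probe sets of like level. The difference was 0.01 (SE 0.21), and its 95% interval of -0.51 to 0.52 bounds a genotype difference of the brighter probe set. The dimmer probe set differed by 0.21 (SE 0.33, 95% interval -0.59 to 1.01), from 7.42 ± 0.56 in control to 7.64 ± 0.32 in SRF-null cells.

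**Figure D2:**
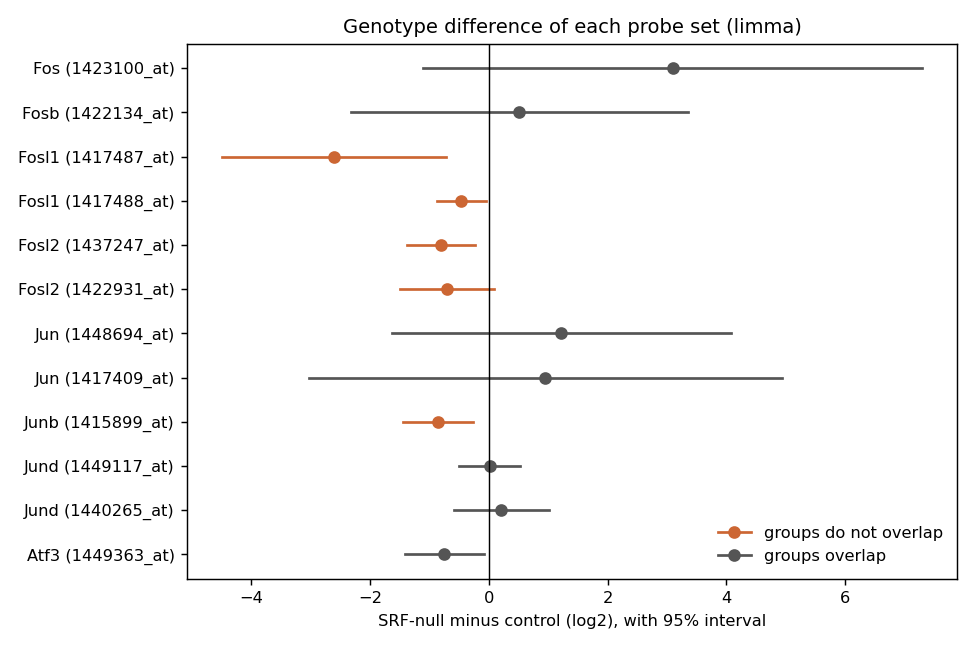
Difference SRF-null minus control on the log2 scale (horizontal axis) for each of the 12 probe sets, with the 95% interval from limma, which is not adjusted for the number of probe sets. Orange marks the 5 probe sets whose groups do not overlap, all of them below 0. The intervals of Fos, Fosb and Jun are wide and span 0, and that of the brighter Jund probe set runs from -0.51 to 0.52.

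Among the members, profiles were compared as the root mean squared difference between their log2 values over the 6 arrays after each gene's own mean was subtracted. Junb and Atf3 were the closest pair, at 0.14, though the size of the Atf3 difference depends on the offset. Junb and Fosl2 came next, at 0.41, with Jund and Atf3 at 0.42 and Junb and Jund at 0.45 nearly as close. The measure is not scaled, so genes with small swings score as close even where their patterns differ. Jund, for example, differed between genotypes by 0.01 and Junb by -0.86. Of the genes with wide swings, Fosb and Jun differed by 0.72 and Fos and Jun by 1.16. Fos and Fosl1 were the most unlike pair, at 3.96. These values describe the 6 arrays, whose genes share pool and genotype, and carry no test.

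**Figure D3:**
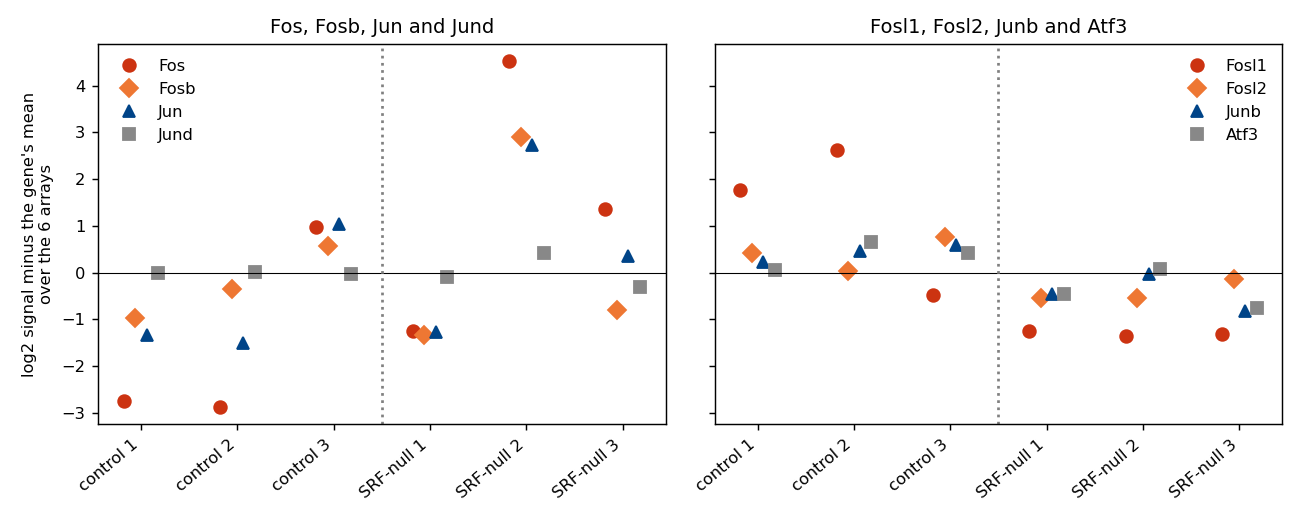
Log2 signal of each gene's brightest probe set minus its mean over the 6 arrays (vertical axis) on each array (horizontal axis), with the dotted line between genotypes. On the left, Fos, Fosb and Jun peak on SRF-null replicate 2 at 4.52, 2.90 and 2.72 while Jund stays within 0.42 of its mean; on the right, Junb and Atf3 run together and Fosl1 is high on control replicates 1 and 2 alone.

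Outside the family, the genes closest to Junb among 9091 candidates above the median level were Nab2 (0.14), whose product is a corepressor of EGR proteins, Dennd3 (0.17) and the angiopoietin receptor gene Tek (0.17). Their own differences were -0.63, -0.78 and -0.84. The genes closest to Fos were C1qb (1.48), a complement gene of macrophages, Auts2 (1.72) and the calponin gene Cnn2 (1.79). Fos thus had no candidate nearly as close to it as Junb had, and its range of 7.39 exceeded theirs. The mean profile of the 8 members was nearest to Zbtb48 (0.15), Ptdss2 (0.20), Gpr137b (0.24), Pex6 (0.24) and AU022252 (0.25), and like Fos, Fosb and Jun it was highest on SRF-null replicate 2, by 1.09 above its mean.

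Other immediate early genes did not all share the pattern of Fos. Of 19 in the list, 10 were lower and 9 higher in SRF-null cells, 0 passed adjustment, and 1 was lower and 0 were higher at an unadjusted p under 0.05, where 2.37% and 2.58% of the 18193 genes were. The median difference was -0.06, against -0.01 over all genes. Egr1, a zinc finger factor that is also an SRF target, read 14.61, 14.20 and 14.76 on the controls and 12.76, 14.07 and 13.15 on the SRF-null arrays, a difference of -1.20 (SE 0.36, unadjusted limma p of 0.0170, adjusted p = 1). As for Junb, SRF-null replicate 2 was the highest of the SRF-null arrays for Egr1. Btg2, an antiproliferative gene, was at 11.59 ± 0.55 in control and 12.28 ± 0.10 in SRF-null cells (difference 0.69, SE 0.29). SRF-null replicate 2 was the highest array for 5 of the 19 genes, or 26.3%, where it was highest for 22.2% of all genes. Among them, and chosen after their values were seen, were Klf4 at 11.59 there against 5.95 to 9.83 elsewhere, the phosphatase gene Dusp1 at 15.38 against 13.67 to 14.04, and Zfp36, whose product destabilizes AU-rich transcripts, at 13.90 against 12.39 to 12.99.

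Heat shock genes, which respond to handling and stress, set another array apart. Control replicate 3 was the highest array for 8 of 8 heat shock genes, where it was highest for 19.3% of all genes. Among the AP-1 genes it was the highest array for Junb and Fosl2 and the second-highest for Jun and Fosb. Hspa1b read 12.85, 9.16 and 16.61 on the controls and 6.07, 9.40 and 12.92 on the SRF-null arrays, a difference of -3.41 (SE 2.40). Hsph1 differed by -0.45 (SE 0.31), and these 2 genes had the smallest p in the list. The mean heat shock signal was 16.06 on control replicate 3 and 12.39 to 13.46 on the other 5 arrays, with 12.84 on SRF-null replicate 2. All 8 heat shock genes were lower in SRF-null cells, 0 of them at an unadjusted p under 0.05, with a median of -0.33 against -0.01 over all genes. This shared direction depended in part on control replicate 3. On the other controls Hspa1a read 5.68 and 4.14, against 4.28 to 5.69 on the SRF-null arrays. Hsph1 read 16.59 and 16.69 there, against 16.24 to 16.90. Without control replicate 3 the difference was -0.77 for Junb, -0.63 for the brighter Fosl2 probe set and -3.5 for the brighter Fosl1 probe set. The part of the heat shock signals in the differences of the AP-1 genes was not tested.

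**Figure D4:**
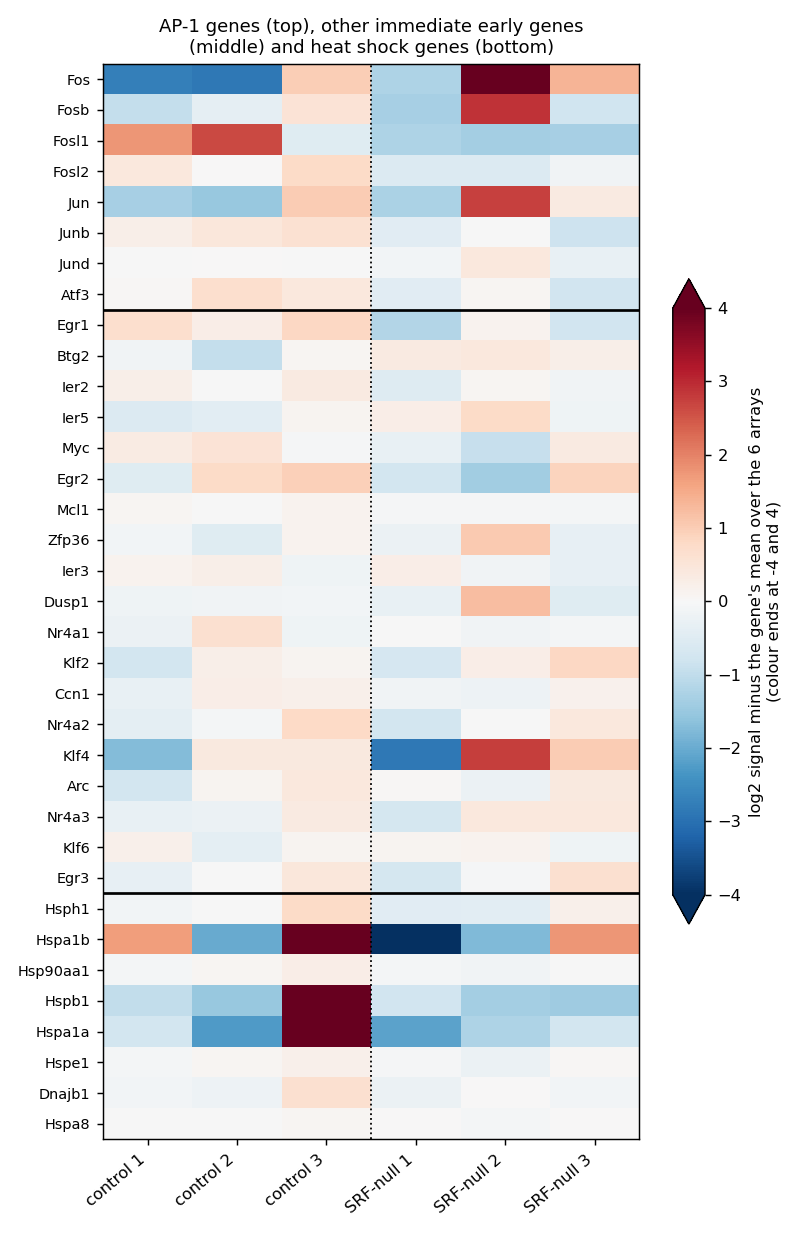
Log2 signal minus each gene's mean over the 6 arrays, as colour from blue (low) to red (high), for the 8 AP-1 genes, the 19 other immediate early genes and the 8 heat shock genes (rows) on the 6 arrays (columns); the dotted line separates genotypes. Fos, Fosb, Jun and Klf4 are highest on SRF-null replicate 2, whereas Hspa1b, Hspb1 and Hspa1a are highest on control replicate 3.

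The dimer partners, regulators and targets of AP-1 were read on each gene's brightest probe set. Of 19 measured bZIP partners 11 were lower and 8 higher, with 0 at an unadjusted p under 0.05 in either direction, a median of -0.09 and 4 whose groups lay apart with SRF-null lower, where 5.45% of all genes did. The erythroid and megakaryocytic factor gene Nfe2 was at 15.98 ± 0.08 against 15.68 ± 0.10 (difference -0.29, SE 0.13) and Batf2 at 9.97 ± 0.76 against 9.16 ± 0.11 (-0.80, SE 0.38). Of 15 measured upstream kinases and regulators, 1 was lower and 1 higher at that level, where 2.37% and 2.58% of all genes were. The median was 0.02. Men1, which encodes menin, a protein that binds JUND, read 12.78, 12.96 and 13.05 on the controls and 12.53, 12.33 and 12.40 on the SRF-null arrays (difference -0.51, SE 0.14, unadjusted limma p of 0.00945, adjusted p = 1). Mapk8, which encodes the JUN kinase JNK1, read 12.84, 13.11 and 12.86 against 13.27, 13.30 and 13.29 (0.35, SE 0.13, unadjusted limma p of 0.0363, adjusted p = 1). For both genes the groups did not overlap. Among all 18193 genes, 991 lay apart with SRF-null lower and 935 with SRF-null higher.

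Among 23 measured AP-1 target genes 12 were lower and 11 higher, with a median of 0. At an unadjusted p under 0.05, 1 gene was higher, where 2.58% of all genes were. It was the cyclin D1 gene Ccnd1, at 13.35, 11.69 and 12.67 on the controls and 13.72, 13.72 and 13.79 on the SRF-null arrays (difference 1.18, SE 0.41, unadjusted limma p of 0.0286, adjusted p = 1). Fasl, the death ligand gene, was under an intensity of 16 on 5 of 6 arrays (4.80 ± 0.25 against 4.30 ± 0.28). Of the 7 genes of SRF and its cofactors (median 0.08), Myocd was under 16 on all arrays. Srf alone had an unadjusted p under 0.05, where 2.37% of all genes were lower at that level. Mrtfa, which encodes the actin-regulated cofactor, was at 13.82 ± 0.07 against 13.92 ± 0.06 (0.10, SE 0.12). In these lists 0 genes passed adjustment by limma.

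Markers of mature cell types were read beside these values. Of 11 measured monocyte and macrophage markers 11 were higher in SRF-null cells, 5 of them at an unadjusted p under 0.05, where 2.58% of all genes were. The mean log2 signal of these markers was 9.06 to 9.96 on the controls and 10.01 to 11.11 on the SRF-null arrays. Their summed normalized intensity was 33169 to 67452 and 69075 to 96844, of which the protease gene Ctss held 41.3% to 64.1%, and none of the 11 was under 16 on all arrays. The macrophage complement gene C1qb read 12.63 and 12.38 on SRF-null replicates 2 and 3 and 9.22 to 10.15 on the other arrays. The mean of this list was 10.64 on SRF-null replicate 2 and 11.11 on SRF-null replicate 3. Of 8 T and NK cell markers 7 were higher, 3 of them (Klrd1, Cd4 and Nkg7) at an unadjusted p under 0.05 with groups apart. Among all 18193 genes, 935 lay apart in that direction. The mean log2 signal of the 8 markers overlapped, at 6.86 to 7.24 and 7.15 to 8.35. Their sum of 56512 to 66799 on the controls and 77279 to 84935 on the SRF-null arrays was 96.9% to 99.1% Nkg7. Cd3g was under 16 on all arrays. B cell and megakaryocyte markers were higher for 6 of 6 genes each, with 0 at an unadjusted p under 0.05, and stem cell markers were lower for 5 of 7, also with 0. Granulocyte, erythroid, mast cell and basophil, dendritic cell, and stromal and endothelial markers went in both directions. Of these, the mast cell gene Cma1 (-1.68, SE 0.41) and the stromal gene Col1a2 (-1.78, SE 0.69) were lower at that level, where 2.37% of all genes were. Pdgfrb was higher (0.65, SE 0.21). The part of these cells in the AP-1 values was not tested, and in bulk samples fewer cells of a type cannot be told apart from less RNA per cell. The Affymetrix Actb controls, which compare 3′ with 5′ signal and so track RNA integrity, differed between those ends by 1.18 to 1.45 (log2) on the controls and 0.93 to 1.51 on the SRF-null arrays, highest on SRF-null replicate 2 (1.51). The Gapdh controls differed by 0.97 to 1.20 and 0.67 to 1.16, highest on control replicate 2.

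The count of 5 member probe sets at an unadjusted p under 0.05 depended on single arrays. It was 3 without control replicate 2 and 3 without SRF-null replicate 3. Of all 45037 probe sets, 1422 and 2231 were at that level in these fits, against 1975 with all 6 arrays. Without both of the pools that showed 1 sex the member count was 1, the brighter Fosl2 probe set (-0.93, SE 0.26), beside 1289 of all probe sets. Without control replicate 3 or without SRF-null replicate 1, the probe sets at that level included Fos, which was higher.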

How the data were processed

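For each array 30 ng of RNA from sorted LSK cells was amplified and biotin-labelled with NuGEN reagents for Affymetrix arrays, per the labels. The authors deposited linear intensities, 1 for each probe set on each array. The scale was read from the values, since the authors' summary, background correction and scaling are not stated in the labels. Of 45101 probe sets, 64 Affymetrix controls were left out of the tests. The annotation named 1 gene for 34945 of the rest, several for 932 and none for 9160.

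Intensities were converted to log2(value + 16), which understates the change of dim genes, and quantile normalized. Genotypes were compared in R 4.3.3 with limma 3.58.1, using lmFit and eBayes with genotype as the only term and both directions tested, with Benjamini-Hochberg adjustment over 45037 probe sets and a threshold of 0.05. Precision is limited by having 3 arrays per group. The fit was tested on simulated data. Each gene of a list was read on its brightest probe set, and 91 of 98 genes in 6 pathway lists were measured. Named in each list were the 2 genes with the smallest p, and beside the members the nearest profiles, 5 to their mean and 3 each to Fos and Junb. The members and lists were chosen with earlier results of these data known. Figures were drawn with matplotlib 3.10.9.

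Arrays of both genotypes carry replicate numbers 1 to 3. Deviations from the group means correlated at 0.473, 0.21 and 0.427 between arrays of equal number, over all probe sets, so the numbers were treated as pairing the arrays in an alternative fit.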

Additional observations from a re-analysis of the deposited data

How the results depend on the processing

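Over 17 alternatives 0 member probe sets and 0 genes of the pathway lists passed the adjusted threshold. Over all probe sets 1 passed after median centring (Mocs1, 5.02, adjusted p = 0.0225) and 1 without control replicate 2 (Ccnb1ip1, -7.06, adjusted p = 0.0459), both named after their values were seen, and leaving out 1 array at a time gave 0 to 1. Fos, Fosl1, Fosl2, Junb, Atf3 and the brighter Jun probe set kept their direction in every alternative that tested them. The lowest and highest differences were 1.61 and 4.49 for Fos, 0.16 and 2.15 for the brighter Jun probe set, -1.0 and -0.63 for the brighter and -0.90 and -0.34 for the dimmer Fosl2 probe set, -1.06 and -0.66 for Junb and -1.37 and -0.33 for Atf3. Without SRF-null replicate 2 Fosb was at -0.82, the dimmer Jun probe set at -0.72 and the brighter Jund probe set at -0.20; leave-one-out ranges were -0.82 to 1.31, -0.72 to 2.32 and -0.20 to 0.17. The brighter Jund probe set was at -0.02 after median centring and -0.02 with array weights, and at 0 to 2 decimals, from below, without control replicate 3. The dimmer Jund probe set was at -0.04 with array weights and -0.11 without control replicate 1 (range -0.11 to 0.40). The cause was not tested.

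In the fit with the replicate block the counts past the adjusted threshold were again 0. There 6 member probe sets, all lower in SRF-null cells, and 3189 of all 45037 had an unadjusted p under 0.05. Without the block these counts were 5 and 1975. The limma p with the block was 0.00484 for the brighter Fosl2 probe set and 0.0182 for Junb. The block changed no call. All probe sets with an unadjusted p under 0.05 numbered 1975, and 3189 with the block, 3258 with array weights, 1231 after median centring, 1127 among probe sets above the median level, 1044 with 1 probe set per gene, 1422 to 3422 without 1 array and 1289 without both pools of 1 sex. Member probe sets at that level numbered 3 after median centring and 2 above the median level, where fewer were tested. No alternative scaling moved the median of all probe sets by more than 0.04. Dim members (Fosb, Fosl1, Atf3) are limited by signal near the bottom of the scale.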
